A study of Mus musculus with 4 samples.

Results

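Exonic peaks away from promoters were the ATAC-seq peaks whose summit lay in an annotated exon of a GENCODE protein-coding gene and more than 2 kb from every transcription start site (TSS). Peaks that overlapped a CpG island (CGI) or were at least 50% soft-masked as repeats were left out, and only the 19 autosomes were used. Of 119365 peaks in 4 lists, 1423 were members, 697 of them with the summit in coding sequence and 726 in an untranslated region (UTR). All peaks of the 4 lists were merged where they overlapped. Of 58652 merged regions, 924 held a member and are called exonic regions (488 coding and 436 untranslated, by the class of the strongest member peak), in 877 genes. A list holds a region when any of its peaks lies in it, also one that is not a member. Depths and percentiles given for a region are the highest among that list's peaks there. All positions are in mm10.

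ATAC-seq maps open chromatin by the places where Tn5 transposase inserts adapters. Titles and protocol give nuclei of hippocampi dissected at postnatal day 0 (P0) for each library, while the labels' source field names neural progenitor cells. The 2 cKO libraries were Kdm2bEmx1-ΔCxxC, in which Cre driven from Emx1, a gene of the dorsal telencephalon, deletes the exon for the CxxC zinc finger of KDM2B, so that cells outside that lineage keep it. The 2 Ctrl libraries came from mice with 1 floxed Kdm2b allele (Kdm2bfl/+) or both (Kdm2bfl/fl), and the labels do not say which is which, nor whether tissue was pooled. The libraries are called Ctrl1, Ctrl2, cKO1 and cKO2 by their replicate numbers.

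Most distal open chromatin of the genome lies in introns and between genes, where enhancers are found. Exons can hold such elements too, and a base of a coding exon may then carry both a codon and a site for a DNA-binding protein. The 3′ UTR, which follows the stop codon, is known for the control of mRNA stability and translation. KDM2B recognises unmethylated CpG through its CxxC domain and brings a Polycomb complex to CGIs, so the exonic peaks studied here, which avoid CGIs, lie outside its best known sites.

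One library stood apart. The lists held 46389 peaks in Ctrl1, 7037 in Ctrl2, 21404 in cKO1 and 44535 in cKO2, whereas the genome-wide mean depth recovered from the lists was 1.62, 3.46, 2.07 and 1.81 fragments per base in that order, so the shortest list came from the deepest library. Of 12 genes of the dorsal telencephalon and hippocampus, among them Emx1, Zbtb20 and Prox1, a promoter peak was present for 12 in Ctrl1, 0 in Ctrl2, 9 in cKO1 and 12 in cKO2. The labelled tissue was thus not seen at these markers in Ctrl2. No list held a promoter peak for the 4 microglia and vessel markers or the 4 markers of liver, pancreas, heart and skin, and of the 4 interneuron markers 2, 0, 0 and 1 had one. Of the 3 oligodendrocyte markers, Pdgfra had one in Ctrl1 and in cKO2. The main results that rest on Ctrl2 are therefore also given without it.

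Sequences of 2 kinds, on which later results turn, are shown here, and some members belong to neither. Some exons consist of copies of one unit in a row, and their peaks are made of words found many times over. The most frequent 30-base word of a peak is shown for 3 such coding regions, read on the plus strand of mm10, at the position of its first copy in the peak.
Hrnr: ttctggacaaggtcaggcctctgggtcagg
Gm9573: tgaggcagagctggatgcagtggtggtcag
Plin4: acctttagccacgttcacagcccctgtgag
The word of Hrnr (chr3:93324664-93324693) occurred 13 times in a peak of 6846 bp. The word of Gm9573 (chr17:35620350-35620379) occurred 10 times in 2107 bp and that of Plin4 (chr17:56105104-56105133) 6 times in 1781 bp.

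Other members had sequence found once in the genome, and some held the core of the site of CTCF, a zinc finger protein that binds insulators and loop anchors. The core was searched as CCANNAGNNGGC on both strands within 100 bp of a summit. The 30 bases around the match are shown for 4 coding regions, 5′ to 3′ on the strand of the match, with the matched core in capitals.
Cldn12: ggagtccggCCACCAGGTGGCagcctgcac
Tcp11l1: tcaagatggCCAGCAGAGGGCagcagagcc
Mrc2: gctgttgggCCACAAGGAGGCgctgcagcg
Grik1: tttggaactCCAACAGTGGGCtgaacatga
They lie at chr5:5508011-5508040 (plus strand), chr2:104685581-104685610 (plus strand), chr11:105347966-105347995 (plus strand) and chr16:87950105-87950134 (minus strand). The match lay 67, 53, 27 and 35 bp from the summit in that order. In Cldn12, Mrc2 and Grik1 the core lies within a coding exon, so its letters also encode protein, and in Tcp11l1, where the summit is exonic, it lies outside the annotated exons.

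In each of the 4 libraries, peaks that passed the filters were fewer per eligible Mb in exons than in introns. Coding exons made up 24.5 Mb of the eligible sequence (autosomal, unmasked, outside CGIs and more than 2 kb from a TSS), UTRs 22.1 Mb and introns 595.5 Mb. Ctrl1 had 299 coding, 336 untranslated and 12481 intronic peaks, which came to 12.2, 15.2 and 21 peaks per eligible Mb. Ctrl2 had 17, 8 and 583, or 0.695, 0.362 and 0.979 per Mb. In cKO1 the numbers were 73, 67 and 3841 (2.99, 3.03 and 6.45 per Mb), and in cKO2 they were 308, 315 and 11540 (12.6, 14.3 and 19.4 per Mb).

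The coding density was 0.583, 0.710, 0.463 and 0.65 of the intronic density in Ctrl1, Ctrl2, cKO1 and cKO2. On the log2 scale this was −0.75 ± 0.27 (SD, n = 4), below 0 in 4 of 4 libraries (exact two-sided sign-flip permutation test, p = 0.125, the smallest that 4 libraries allow, adjusted p = 0.225 over 9 such tests). The density in UTRs was 0.726, 0.370, 0.470 and 0.736 of the intronic density, or −0.86 ± 0.49 on the log2 scale, again below 0 in 4 of 4 libraries (exact permutation p = 0.125, adjusted p = 0.225). Without Ctrl2 the log2 differences were −0.84 for coding exons and −0.66 for UTRs. When peaks of repeated sequence were left out they were −0.81 and −0.51. That shift of the UTR mean came from Ctrl2, which went from −1.43 to 0.038 and kept 7 exonic peaks. The UTR value went from −0.46 to −0.49 in Ctrl1, from −1.09 to −1.07 in cKO1 and from −0.44 to −0.51 in cKO2. The coding result depended on the filter. With repeats and CGIs kept, so that peaks and bases followed the same rule, it was −0.34. Coding density was then above the intronic one in Ctrl1 (0.064) and cKO2 (0.11) and below it in Ctrl2 (−1.17) and cKO1 (−0.37). Between coding exons and UTRs the order varied, with 0.804, 1.92, 0.984 and 0.883 coding peaks per Mb for each untranslated peak per Mb.

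**Figure D1:**
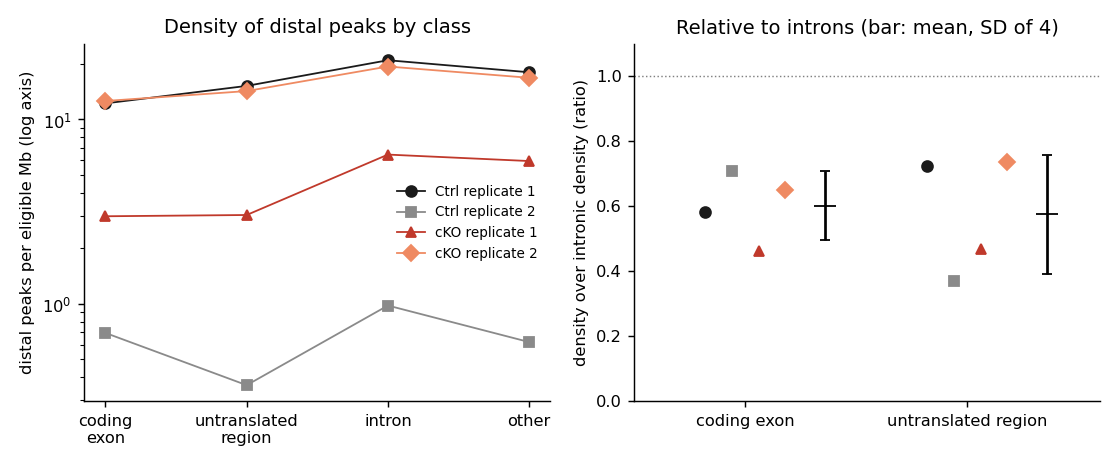
Left, distal peaks per eligible Mb (log axis) in coding exons, UTRs, introns and the other eligible sequence, with 1 line per library. Right, density over the intronic density of the same library, with points for the 4 libraries and the bar at the mean ± SD (n = 4); all points lie below 1, between 0.370 and 0.736.

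In Ctrl1 and cKO2 most coding members reached beyond their exon. The median coding exon under a summit was 228 bp long in Ctrl1 and 237 bp in cKO2, and 59.5% and 57.5% of the peaks were wider than the exon. Coding sequence then took 50.2% and 51.3% of the median peak, and the summit lay 60 and 64.5 bp from the nearer exon edge, so the typical coding member also covered intron. In cKO1 the median exon was 527 bp long and coding sequence took 73.4% of the peak. In Ctrl2 it was 3833 bp and 100%, and 11 of its 17 coding members lay in exons of at least 1000 bp, against 78 of 299 in Ctrl1, 27 of 73 in cKO1 and 90 of 308 in cKO2.

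Untranslated members were almost all in the 3′ UTR, with 328 of 336, 7 of 8, 67 of 67 and 310 of 315 peaks. The 3′ UTR also made up 21.7 of the 22.1 eligible Mb of UTR, since most 5′ UTR lies near a TSS. Their exons were long, with medians of 3159.5, 2902, 2813 and 2899 bp, and the median peak lay wholly inside the UTR in all 4 libraries. The summit sat 618 to 708 bp from the nearer exon edge (range of the medians).

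In strength, coding members differed from intronic peaks by less than the spread between libraries. Strength is given here as the percentile of a peak by −log10 p among all deposited peaks of its list. The coding medians were 34, 40.4, 44.6 and 37.7 and the intronic medians 39.7, 41.7, 42.2 and 42.7 in the same order of libraries, a mean difference of −2.40 ± 3.76 (SD, n = 4, exact permutation p = 0.375, adjusted p = 0.482). It was −1.30 without Ctrl1, −2.75 without Ctrl2, −4.02 without cKO1 and −1.53 without cKO2. Untranslated members had medians of 39.3, 21.5, 38.4 and 37.9, below the intronic median in 4 of 4 libraries the mean difference being −7.29 ± 8.84 (exact permutation p = 0.125, adjusted p = 0.225). Without Ctrl2 that difference was −2.98. Median widths of exonic members were 367, 432, 350.5 and 359 bp, and they differed from intronic peaks by −10.6 ± 15.7 bp (exact permutation p = 0.375, adjusted p = 0.482), or −5.5 bp without Ctrl2 and −17.7 bp without cKO1.

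In each library members were richer in G and C than intronic peaks, in the 200 bp centred on the summit. The median GC content of coding members was 53.0, 53.5, 54.5 and 54.0% against 48.0, 50.5, 49.0 and 49.0% for intronic peaks, a difference of 4.63 ± 1.11 percentage points, above 0 in 4 of 4 libraries (exact permutation p = 0.125, adjusted p = 0.225). Untranslated members stood at 50.5, 51.8, 53.0 and 51.5%, which was 2.56 ± 1.13 points above introns, also in 4 of 4 libraries (exact permutation p = 0.125, adjusted p = 0.225). In lists cut to equal size the untranslated difference was 0.5 points, with 0 in Ctrl1 and −1.5 in cKO2. The sequence itself differs in the same direction, since GC made up 51.1% of the eligible coding bases, 44.5% of the UTR bases and 43.4% of the intronic bases, and its part in the difference was not tested.

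Repeated sequence was frequent among the regions held by all 4 lists and in Ctrl2. A peak was called repeated here when at least 10% of its 32-base words occurred more than once in the genome, a limit chosen after the data were seen. This held for 14 of 17 coding and 4 of 8 untranslated members in Ctrl2. The counts were 19 of 299 and 19 of 336 in Ctrl1, 11 of 73 and 5 of 67 in cKO1, and 28 of 308 and 28 of 315 in cKO2. Intronic peaks of Ctrl2 were repeated to a like degree (478 of 583, 82.0%, against 82.4% of its coding members). No member had as much as 10% of its words on the mitochondrial genome. Whether fragments of other copies were placed in these exons was not tested.

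**Figure D2:**
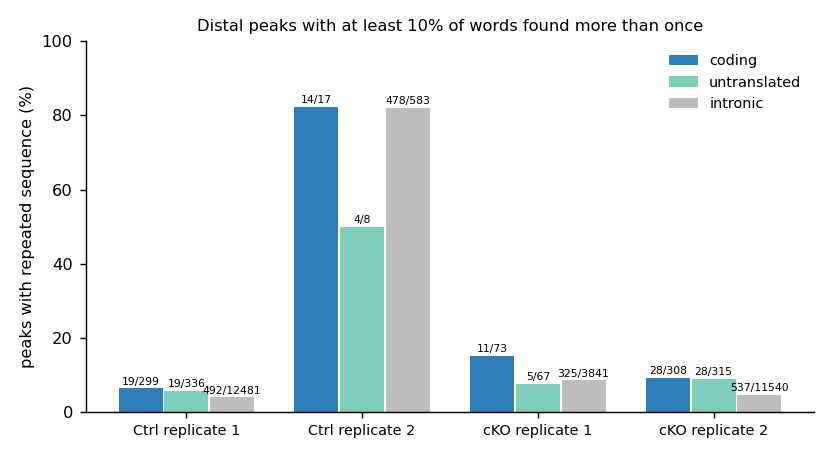
Share of distal peaks (%) in which at least 10% of the 32-base words occur more than once in the genome, by library and class, with the number of such peaks and all peaks of the class above each bar. Ctrl2 stands apart for coding (82.4%), untranslated (50%) and intronic (82.0%) peaks.

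Of 924 exonic regions, 13 (1.41%) were held by all 4 lists, against 1.18% of all 34962 distal regions. Of the 9 coding regions among them 6 were repeated, and of the 4 untranslated regions 1 was. Among regions in 1, 2 or 3 lists, 8.39%, 7.27% and 5.33% were repeated. A list could hold a region through a peak that was not a member. At Sh3gl2, Fam110b, Fnip2, Dcaf12, Kif5c, Shank3 and Csrp2, among others, 1 peak alone was a member, and at Fam110b it was that of Ctrl2.

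Eppk1 encodes epiplakin, a cytoskeletal linker of epithelia built of plakin repeats, and its region (chr15:76102718-76105825) lay in the last exon, of 11245 bp. At its summit 54 fragments stood in Ctrl1, 265 in Ctrl2, 74 in cKO1 and 109 in cKO2. Scaled depth, the summit fragments divided by that library's genome-wide mean, was 33.3, 76.5, 35.7 and 60.3, so the cKO libraries fell inside the Ctrl range. Muc6, a gel-forming mucin of the stomach (chr7:141638109-141639759, exon 31 of 33), had scaled depths of 25.3, 39.8, 28.9 and 35.4, in the same order as Eppk1. Gm9573 (chr17:35619689-35622247) had 12.3, 21.9, 12.1 and 19.4.

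Hrnr, the gene of the epidermal protein hornerin, had scaled depths of 14.2, 15.6, 12.5 and 17.2 over a region of several kb (chr3:93324203-93331435), in which 99.0% of the words were repeated. Plin4, a lipid droplet protein (chr17:56104546-56106530), had 11.7, 14.4, 6.27 and 12.7. In 4 of these 5 coding regions the highest depth was that of Ctrl2, Hrnr being the exception. By mean percentile, with a list that lacks a region counted as 0, Eppk1 (96.4) and Muc6 (93.1), both genes of epithelia, came first among the coding regions. Over the 3 lists other than Ctrl2, Eppk1 was still first (95.4), while Muc6 (91.3) came after Col6a3 (93.6) and Chia1 (91.9).

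Lars2, the mitochondrial leucyl-tRNA synthetase, held the deepest exonic region (chr9:123461800-123462189, in the 3′ UTR). It had 3616, 1295, 2664 and 2484 fragments at the summit, or scaled depths of 2229, 373.8, 1284 and 1375. Of its words 62.5% occurred elsewhere in the genome and none more than once within the peak. Ctrl2 was the lowest library there.

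The 6 regions in all 4 lists that were not repeated showed an order of libraries unlike that of the repeated coding regions above, with Ctrl2 lowest as at Lars2. Sh3gl2 encodes endophilin A1, which acts in synaptic vesicle endocytosis, and its region over exon 4 of 8 (chr4:85376179-85377018) had 53, 18, 34 and 70 fragments and scaled depths of 32.7, 5.20, 16.4 and 38.7. Hkdc1, of the hexokinase family (chr10:62401514-62402247), had 22.8, 5.48, 10.6 and 25.5. Nr3c2, the mineralocorticoid receptor, a steroid receptor abundant in hippocampal neurons (chr8:77187329-77188548), had 20.3, 4.04, 8.20 and 17.7. In each, Ctrl2 was lowest and cKO1 next, while Ctrl1 and cKO2 were high.

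The same order held for the 3 untranslated ones. Fam110b (chr4:5797811-5798829) had scaled depths of 39.5, 5.20, 14 and 35.4. Stx6, a SNARE protein of the trans-Golgi network (chr1:155204490-155205146), had 24.0, 4.91, 12.5 and 29.3, and Ephb2, a receptor for ephrin-B ligands that guides axons (chr4:136651595-136652785), had 16, 5.20, 11.1 and 18.3. The groups overlapped in all 13 regions held by 4 lists. Over all distal regions in 4 lists, 2.9% had both cKO libraries higher than both Ctrl libraries and 7% had both lower.

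**Figure D3:**
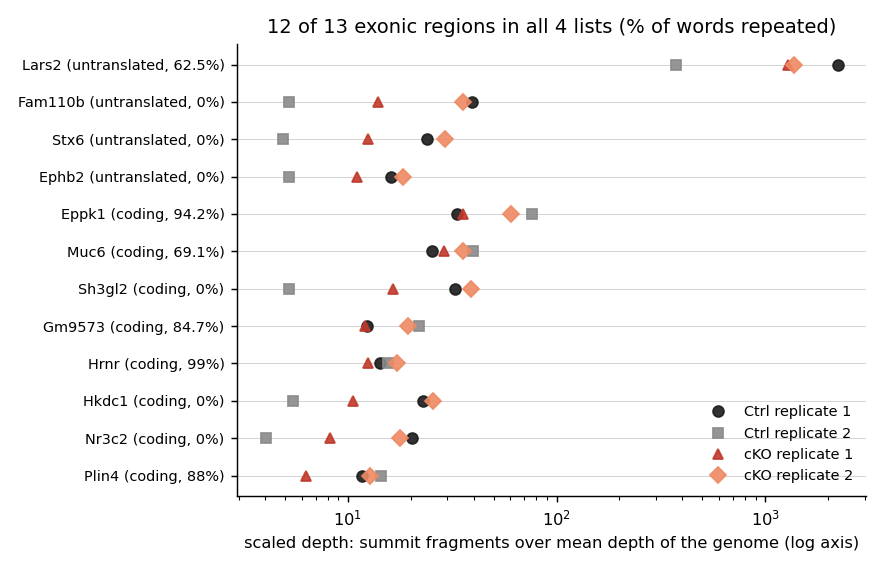
Scaled depth (log axis) at the summit of 12 of the 13 exonic regions held by all 4 lists, with 1 point per library and, beside each gene, its class and the percent of words that are repeated. In the 6 regions at 0% Ctrl2 lies lowest, at 4.04 to 5.48, and in none of the 12 do the 2 cKO points lie wholly above or below the Ctrl points.

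Outside repeated sequence, the strongest coding regions lay mostly in short exons of genes of many roles. They are ranked by the mean percentile over the 4 lists, counting 0 where a list lacks the region, a choice made after the values were seen. Sh3gl2 came before Chia1 in this order through its peak in Ctrl2, and over the other 3 lists it averaged 90.3 against 91.9 for Chia1. Chia1, an acidic chitinase (chr3:106131615-106132375, last exon), had scaled depths of 36.4 in Ctrl1, 21.2 in cKO1 and 43.2 in cKO2 and no peak in Ctrl2. Thsd7a, a membrane protein with thrombospondin repeats (chr6:12381079-12381783, exon 12 of 28), had 27.7, 12.1 and 33.8. Fnip2, a partner of folliculin (chr3:79517906-79518722, exon 2 of 18), had 31.4, 13.0 and 45.4. In these 3 genes cKO2 was highest and Ctrl1 lay between the cKO values.

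Chd7, a chromatin remodeller of the chromodomain family needed in neural progenitors, had 2 coding regions. That in its last exon (chr4:8865671-8866291, exon 38 of 38) had scaled depths of 33.9, 13.0 and 27.7 in Ctrl1 and cKO1 and cKO2, and that in exon 16 (chr4:8838320-8838922) had 29, 8.68 and 24.4. Ank3, which encodes the ankyrin of the axon initial segment (chr10:69870532-69871432), had 32.1, 12.1 and 29.3. Kif5c, a kinesin heavy chain of neurons (chr2:49741806-49742296, an exon of 110 bp), had 25.3, 17.8 and 24.9. In these genes both cKO values were below that of Ctrl1, and cKO1 was again the lowest.

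Sema4f, a semaphorin of the nervous system (chr6:82917090-82917913), had 30.8, 16.4 and 32.7. Dcaf12, a substrate receptor of a ubiquitin ligase (chr4:41293750-41294385), had 27.1, 12.5 and 33.2, Riiad1 (chr3:94465615-94466307) had 35.8, 13.5 and 26.0, and Tram2 (chr1:21002445-21003250) had 29.6, 16.4 and 22.7. Each of these peaks reached beyond its exon, and coding sequence took 9.81% of the peak at Riiad1 and 40.9% at Sema4f.

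Among untranslated regions outside repeated sequence, Fam110b was ranked first in the same way, but its only member peak was that of Ctrl2. Its peaks in the 3 lists other than Ctrl2 were not members. Over those 3 lists it averaged 86.3, below Tmem135 (88.9), Fech (87.6), the ferrochelatase of heme synthesis, and Bace2 (86.7). Tmem135 (chr7:89140732-89141242) had scaled depths of 29.6, 13.5 and 29.9 in Ctrl1 and cKO1 and cKO2. Bace2, a protease related to the β-secretase (chr16:97437463-97438601), had 36.4, 14.9 and 31.6, and Csrp2, a LIM domain protein (chr10:110938140-110939450), had 27.7, 12.5 and 34.9. Orc5, a subunit of the origin recognition complex (chr5:22486633-22487233), had 21, 13.5 and 22.7. In these 4 genes cKO1 was the lowest of the 3 libraries.

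The study reported more accessible chromatin in cKO hippocampi, from average signal around CGIs and TSSs, sites that the members leave out by rule. For exonic members, described by peak counts, shares and depths, no measure separated the genotypes. Their number was 381.5 ± 341.5 in cKO and 330.0 ± 431.3 in Ctrl (mean ± SD, n = 2 each, exact two-sided permutation p = 1). They made up 2.31% of distal peaks in Ctrl1 (95% Wilson interval 2.14 to 2.49%), 2.26% in Ctrl2 (1.54 to 3.32%), 1.6% in cKO1 (1.36 to 1.89%) and 2.43% in cKO2 (2.25 to 2.63%). This averaged 2.02 ± 0.587% over the cKO libraries and 2.29 ± 0.0295% over the Ctrl libraries (exact permutation p = 1). The coding share of the members was 50.8 ± 1.91% in cKO and 57.5 ± 14.8% in Ctrl (exact permutation p = 1).

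Median scaled depth of the members was 9.25 in Ctrl1, 5.20 in Ctrl2, 8.20 in cKO1 and 9.41 in cKO2, or 8.80 ± 0.859 in cKO and 7.22 ± 2.86 in Ctrl (exact permutation p = 0.667). The log2 ratio of the coding to the intronic density was −0.87 ± 0.35 in cKO and −0.64 ± 0.20 in Ctrl (exact permutation p = 0.667). The adjusted p was 1 for each of the 5 measures, and 2 libraries against 2 cannot give a p below 0.333. In all 5 the groups overlapped. Without Ctrl2, cKO minus Ctrl was −253.5 peaks, 3.70 percentage points of coding share and −0.444 of scaled depth, each the reverse in sign of the value with all libraries.

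Of the 924 exonic regions, 328 (35.5%) were held by Ctrl1 and cKO2 alone, 213 (23.1%) by Ctrl1 alone and 190 (20.6%) by cKO2 alone. A further 148 (16%) were in all lists but that of Ctrl2. Over all distal regions these shares were 31.5%, 23.9%, 17.9% and 21.5%. Both cKO lists and neither Ctrl list held 10 exonic regions (1.08%), against 0.738% of all distal regions, and both Ctrl lists and neither cKO list held 3 (0.325%), against 0.12%. When Ctrl2 was left out, 12 of 912 regions (1.32%) were in both cKO lists alone, against 0.963% of all distal regions, and 215 (23.6%) in that of Ctrl1 alone, against 24.3%.

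The leading region in both cKO lists alone was in the 3′ UTR of Sdc1, the proteoglycan syndecan 1 (chr12:8793458-8793866), with 16 fragments in cKO1 and 22 in cKO2. Gm13305 (chr4:42159844-42160205, 2009 bp from a TSS and thus just past the limit) had 19 and 22, and 100% of its words were repeated. Abl1, a tyrosine kinase (chr2:31801411-31801667), had 12 and 18. The 3 regions in both Ctrl lists alone were in coding exons of Fam186a (chr15:99943765-99944351; 9 and 22 fragments), of the autophagy receptor Nbr1 (chr11:101566869-101567433; 11 and 14) and of the lipid transporter Abca3 (chr17:24396860-24397616; 9 and 16). Repeated words made up 94.4% of Fam186a and 27.3% of Nbr1. A list without a peak does not show closed chromatin, since each list has its own limit in fragments.

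In 161 exonic regions the lists of Ctrl1 and both cKO libraries all held a peak, whether or not Ctrl2 did. The median scaled depth was 16.6 in Ctrl1, 8.20 in cKO1 and 16.1 in cKO2, and over all 7940 distal regions of this kind it was 16.6, 8.20 and 17.2. The difference between the cKO libraries was thus larger than that between Ctrl1 and cKO2. Both cKO values were below Ctrl1 in 65 exonic regions (40.4%), against 47.2% of all distal ones, and both were above it in 10 (6.21%), against 3.11%. With 1 Ctrl library there is no test of these counts.

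**Figure D4:**
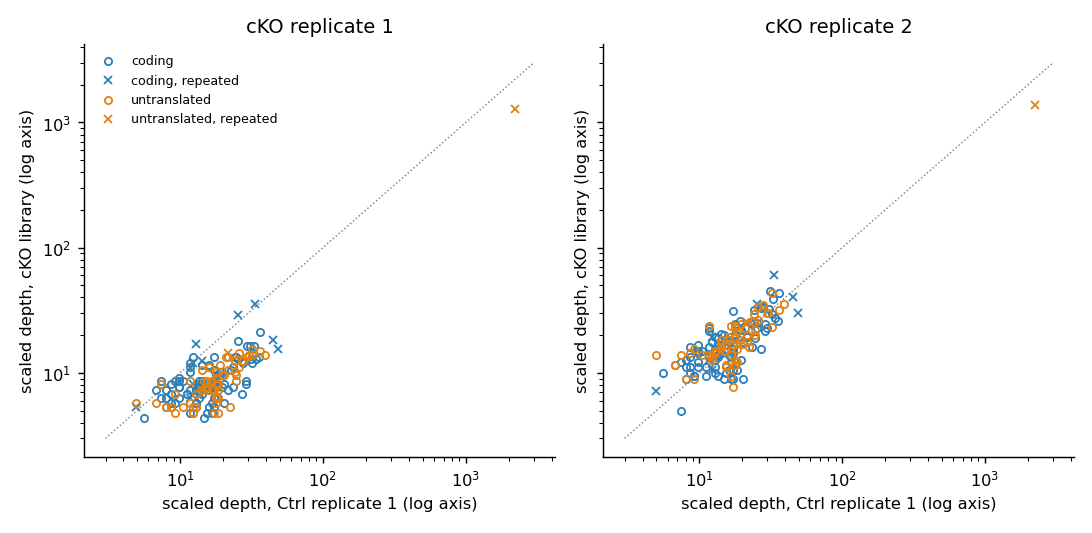
Scaled depth (log axes) of the 161 exonic regions with a peak in Ctrl1 and both cKO libraries, with Ctrl1 on the x axis and a cKO library on the y axis; circles are regions of sequence not repeated, crosses are repeated ones, and the dotted line marks equal depth. Most points lie below the line for cKO1 (medians 8.20 against 16.6) and about it for cKO2 (16.1 against 16.6).

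Of the 10 regions higher in both cKO libraries, some were repeated exons, among them those of Eppk1 and Muc6. Among the rest, the 3′ UTR of Casq2, the calcium store protein of muscle (chr3:102145590-102146131), had scaled depths of 4.93 in Ctrl1 and 5.78 and 13.8 in cKO, and that of Rap1gap2 (chr11:74385763-74386382) had 7.40 against 8.20 and 13.8. Lrfn5, a synaptic adhesion molecule (coding, chr12:61839396-61839827), had 11.7 against 12.1 and 22.7. In each of the 3, cKO1 lay close to Ctrl1 and cKO2 lay farther above it.

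Outside repeated sequence, the lowest cKO values relative to Ctrl1 were at Ptprb and Ntrk3. Ptprb, a receptor phosphatase known from blood vessels (coding, chr10:116361965-116362796), had 20.3 in Ctrl1 against 5.78 and 8.86 in cKO. The 3′ UTR of Ntrk3, the receptor of neurotrophin 3 (chr7:78190773-78191462), had 17.3 against 4.82 and 7.75. Rin2, an exchange factor of RAB5 (coding, chr2:145860106-145860846), had 27.1 against 6.75 and 15.5, and Tmtc4 (coding, chr14:122942974-122943623) had 17.3 against 5.30 and 8.86. These were picked as the extremes of their list, without a second Ctrl value, and are a description only.

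Kdm2b itself (chromosome 5, 122870665 to 122989823) had no member in any list. A single summit lay in one of its exons, in cKO1, and it was within 2 kb of a TSS.

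Axon guidance genes and forebrain transcription factors had the most exonic regions of the 9 lists, by gene and per eligible base, and zinc finger genes the fewest. Of all 18480 protein-coding genes with an eligible exon base, 877 had an exonic region (4.75%), or 19.6 regions per eligible exon Mb. The axon guidance genes had one in 14 of 74 genes (18.9%, 50.4 regions per Mb) and the forebrain transcription factors in 13 of 85 (15.3%, 51.7 per Mb). Extracellular matrix genes followed with 13 of 92 (14.1%, 26.7 per Mb). The zinc finger genes had 12 of 443 (2.71%, 10.1 per Mb) and the cadherin superfamily 4 of 97 (4.12%, 11.6 per Mb).

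The axon guidance genes included ephrin receptors (Epha5, Ephb1, Ephb2), the ligand Efna5, semaphorins (Sema4a, Sema4f, Sema5a, Sema5b, Sema6a), their receptor Plxnd1 and the Slit receptor Robo1, and 5 of the 14 genes had a region in at least 3 lists, against 162 of 877 over all genes with a region. The 3′ UTR region of Ephb1 (chr9:102039113-102039724) had scaled depths of 14.2 in Ctrl1, 10.6 in cKO1 and 17.2 in cKO2. Among forebrain transcription factors were Sox5, Mef2c, Nfia, Gli2, Myt1 and Zbtb20, the last a regulator of hippocampal identity. Sox5, which acts in deep-layer neurons (coding, chr6:144154726-144155397), had 12.9, 7.23 and 14.4. Heyl, an effector of Notch (3′ UTR, chr4:123249046-123249564), had 11.7 in Ctrl1 and 17.7 in cKO2, and no peak in the other lists.

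The synapse and channel genes had 17 of 205 (8.29%, 23.1 regions per Mb), among them Shank3, a scaffold of excitatory synapses (coding, chr15:89547977-89549168; 12.9, 6.75 and 19.4 in Ctrl1 and cKO1 and cKO2), and Kcna2, a potassium channel (3′ UTR, chr3:107113665-107114779; 12.9, 6.75 and 14.9). Grik2, a kainate receptor (coding, chr10:49573565-49574008), had 16.6 in Ctrl1 and 17.2 in cKO2 only. Cytoskeleton genes had 8 of 87 (9.20%, 18.2 per Mb), led by Ank3 and Kif5c, and chromatin regulators 10 of 111 (9.01%, 20.4 per Mb), led by Chd7. Per eligible base both were near the 19.6 over all genes. In the matrix list, Col6a3 (chr1:90775549-90776085) was the strongest at 45.0, 18.3 and 40.4, with 34.9% of words repeated, and Adamts3 (chr5:89701541-89702305) had 23.4, 7.71 and 24.4.

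The Wnt pathway, which the study followed, had 4 of 68 genes (5.88%, 20.3 per Mb), close to the share over all genes. Ror2, a Wnt receptor (3′ UTR, chr13:53109619-53109974), had scaled depths of 12.3, 4.82 and 12.7. The co-receptor Lrp6 (coding, chr6:134512980-134513380) had 18.5 in Ctrl1 and 12.7 in cKO2. The ligand Wnt3 (coding, exon 2 of 5, chr11:103808120-103808363) had 13.3 in cKO2 alone, and the receptor Fzd3 likewise had a region in that list alone. None of the 4 had a peak in both cKO lists without one in Ctrl1. Genes of a list differ in exon length and in how open they are in this tissue, and the counts were not tested against either.

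**Figure D5:**
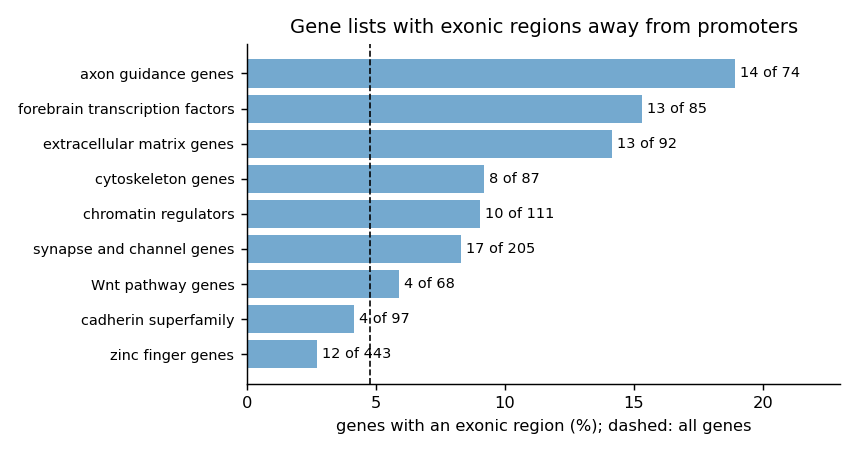
Share of the genes of each list (%) that had an exonic region away from promoters, with the numbers beside the bars; the dashed line marks 4.75%, the share over all 18480 genes with an eligible exon base. Axon guidance genes (18.9%) and forebrain transcription factors (15.3%) are highest, and zinc finger genes (2.71%) lowest.

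Most genes had a single region (825 of 877), 48 had 2 and 4 had 3. Sema6a had 2 coding regions and 1 in its 3′ UTR, and 2 of the 3 were in 3 lists. Syne1, a giant spectrin-repeat protein of the nuclear envelope, had 3 coding regions far apart in a gene of 146 exons, of which the one in exon 8 (chr10:5423926-5424324) had 19.7, 10.1 and 12.7 in Ctrl1 and cKO1 and cKO2 and the others were in Ctrl1 alone. Gabrb1, a GABA-A receptor subunit, had 3 regions in its 3′ UTR exon of 12573 bp, all in the lists of Ctrl1 and cKO2 and no other. Ino80d had 3 in a 3′ UTR exon of 11345 bp. Brca1, a DNA repair gene, had 2 in its long exon 10, of which chr11:101526120-101526606 had 19.7, 7.71 and 22.1.

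The CTCF core occurred within 100 bp of the summit in 5.35% of coding, 8.04% of untranslated and 4.52% of intronic peaks in Ctrl1, and in 5.84%, 9.21% and 3.59% in cKO2. In cKO1 it was 2.74%, 1.49% and 2.53%, and in Ctrl2 it was in 0 of 17 coding, 0 of 8 untranslated and 1.03% of intronic peaks. The coding share differed from the intronic share by 0.569 ± 1.37 percentage points (SD, n = 4, higher in 3 of 4 libraries, exact permutation p = 0.5, adjusted p = 0.5) and the untranslated share by 1.77 ± 3.34 points (higher in 2 of 4, exact permutation p = 0.5, adjusted p = 0.5). Neither difference exceeded the spread between libraries. Without Ctrl2 they were 1.1 and 2.70 points, without cKO1 0.687 and 2.70, and without cKO2 0.0058 and 0.485. Among promoter peaks of the same libraries the share was between 1.53% and 2.99%.

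Of the coding regions with a match, Cldn12, a claudin of tight junctions, was the one named here that had peaks in 3 lists, with scaled depths of 14.8, 4.34 and 8.86 in Ctrl1 and cKO1 and cKO2. The kainate receptor gene Grik1 had 10.5 in Ctrl1 and 15.5 in cKO2, Mrc2, an endocytic collagen receptor, had 9.25 and 8.30, and Tcp11l1 had 9.25 and 6.64. A match is a description of the letters and not evidence that CTCF was bound.

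Other short motifs were counted over merged regions on both strands in the same windows. A region with members of both classes counted once in each, which gave 490 coding and 445 untranslated regions. The homeodomain core TAATTA was in 3.88% of coding regions (95% Wilson interval 2.50 to 5.98%) and 6.29% of untranslated ones (4.39 to 8.94%), against 12.6% of intronic (12.1 to 13.1%) and 2.73% of promoter regions. The AP-1 site TGANTCA was in 3.47%, 5.62%, 6.83% and 3.31% in the same order. The E-box CAGATGG, of the type bound by NEUROD factors, was in 16.3% of coding (13.3 to 19.9%), 16.6% of untranslated (13.5 to 20.4%) and 14.9% of intronic regions (14.4 to 15.5%), and in 4.27% of promoter regions. The intervals for this E-box overlapped between exonic and intronic regions. The AT-rich TAATTA was rarer in coding and in untranslated regions than in intronic ones, with intervals that did not overlap. GC content was higher in members of both classes, and the part of base composition was not tested. Intervals cover counting error only.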

How the data were processed

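Hippocampal nuclei of 2 cKO and 2 Ctrl samples were profiled, with groups and replicate numbers from the sample titles. Nothing says whether samples were separate animals, so p-values measure only the spread between these libraries. Per the methods, the authors trimmed reads (Cutadapt), aligned them to mm10 (Bowtie2), removed blacklisted, mitochondrial and duplicate reads, shifted for Tn5 and called peaks in each library alone with MACS2 2.2.7.1 (submitters' processing notes), without a control. The deposited lists give a fold (ratio of depth to local background), −log10 p-values and −log10 q-values, a score that was not used, and the summit offset, another column the authors' caller wrote. A filter on reads with several matches, which bears on exons of repeated sequence, is not given in the sources used here.

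The fragment depth at a summit was recovered from fold and p-value (a whole number within 0.01 for at least 99.986% of peaks), and the lowest local background in a library stood for its genome-wide mean. The median summit of all exonic members held 15 to 18 fragments, by library. Exons came from the basic set of GENCODE M21 (55450 genes, 21951 protein-coding) and sequence from RefSeq's GRCm38.p6. CGIs were at least 200 bp long, with at least 50% GC and an observed over expected CpG ratio of at least 0.6. A base in both coding and untranslated exons counted as coding.

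Genotypes were compared by exact two-sided permutation and classes by exact two-sided sign flips over libraries, with Benjamini-Hochberg adjustment within the 5 and 9 tests. Steps were checked on simulated data. The members and lists were chosen with earlier results of these data known. Regions named were the strongest by mean percentile in all 4 lists (10 coding, 6 untranslated, fewer where fewer exist), up to 4 held by 1 genotype alone, up to 3 of each gene list, genes with most regions, coding regions with a CTCF core and Kdm2b. Those outside repeated sequence and those set against Ctrl1 were added after the values were seen. A few regions that the rule names are not reported here. Python 3.11.15, numpy 2.4.6, scipy 1.17.1, pandas 2.3.3 and numba 0.67.0 were used.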

Additional observations from a re-analysis of the deposited data

How the results depend on the processing

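The lower densities in coding exons and UTRs than in introns, the higher GC content of both, the lower percentile of untranslated members and the higher CTCF share of untranslated members kept the sign of the mean over libraries under each alternative tried, though not in each library nor in size. The coding log2 density was −0.34 without the filter on repeats and CGIs and −1.25 when at least 50% of the peak had to lie in exons, that of UTRs −1.38 in equal-size lists, the untranslated GC difference 0.5 points in equal-size lists and the untranslated percentile −2.71 at −log10 q of at least 5. Over the 14 tested results, 137 of 156 alternatives kept the sign. No alternative could pass 0.05, so none bears on significance. The rest turned sign as follows, and the cause was not tested. Leaving out 1 library in turn gave cKO minus Ctrl from −253.5 to 356.5 exonic peaks, −0.683 to 0.146 points of exonic share, −17.2 to 3.70 points of coding share, −0.444 to 3.61 of median scaled depth and −0.48 to 0.014 of log2 coding to intronic density. The exonic share differed by 0.516 points without the filter on repeats and CGIs and by 0.190 without peaks of repeated sequence, and the coding share by 4.81 points without the latter. Scaled depth differed by −2.76 for peaks with −log10 q of at least 5. The log2 density ratio differed by 0.0039 more than 5 kb from every TSS and by 0.42 without the filter on repeats and CGIs. The coding percentile was above the intronic one by 0.446 in equal-size lists (7037 peaks), 5.69 at −log10 q of at least 5, 4.76 beyond 5 kb and 1.27 when at least 50% of the peak had to lie in exons. Exonic members were on average wider by 351.1 bp at −log10 q of at least 5 and by 14.8 bp beyond 5 kb. In Ctrl1, Ctrl2, cKO1 and cKO2 the differences were −24, 1410.5, 31 and −13 bp at that q, where Ctrl2 had 10 exonic peaks. Beyond 5 kb they were −9.5, 81, 4.5 and −17 bp. The CTCF share of coding members differed by −2.17 points in equal-size lists.

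Regions in both cKO lists alone exceeded those in both Ctrl lists alone by 7. This became 3 in equal-size lists, 4 at the stricter q, 4 beyond 5 kb and −203 to 197 when 1 library was left out, where a group of 1 library counts all that it alone holds. In a paired analysis by replicate number (the replicate block), the mean differences (51.5 peaks, −0.268 and −6.75 points, 1.58 and −0.23) equal those without it by arithmetic, so it says nothing of stability and is not counted above. The labels do not say that a number marks a shared litter or day. Of 87 named regions 17 were held by as many lists when all were cut to equal size and 57 at the stricter q. The alternative without repeated sequence and the order of regions without Ctrl2 were chosen after seeing the data. A stricter set of CGIs turned no sign. The 25 members of Ctrl2 limit what its medians can show.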

Other observations

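The 25 exonic members of Ctrl2 included further exons of tandem units in mucin genes. Muc5b had 43 fragments at the summit, with 87.5% of words repeated, Muc5ac 38 with 95.7% and Muc4 25 with 53.7%. Muc5b and Muc4 were each in 3 lists and Muc5ac in 2. Clca3b (16 fragments), Qrich2 (17), Nlrc3 (19) and Arhgap11a (15) were in the list of Ctrl2 alone, with 79.0 to 100% of words repeated. Among the members of that library with no repeated word were Rpn1 and Lrrc27, with 17 and 16 fragments, in no other list.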
